A study of Mus musculus with 6 samples.

Results

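The cytosolic ribosomal protein genes were compared between 2 lymphocyte populations of the mouse mammary gland. Members were taken by gene symbol: Rpl or Rps followed by a number, together with Rplp0, Rplp1, Rplp2 and Rpsa, without the Rps6k kinases and without symbols ending in -ps. This gave 93 of the 55450 genes in the table. Of these, 86 are annotated as protein coding and 7 as pseudogenes in GENCODE M21. A core of 77 canonical subunit genes, 46 of the large and 31 of the small subunit, remained after leaving out the 7 pseudogenes, 7 protein-coding paralogues, the retrocopy Rps27rt and Rps19bp1. The last encodes a binding protein of RPS19 and is no ribosomal subunit. Paralogues, pseudogenes and Rps19bp1 are described apart. The symbol rule misses genes such as Fau and Rack1, whose products are also ribosomal proteins.

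The 3 libraries of CD8 beta+ T cells and the 3 libraries of DN (double negative) NK1.1+ lymphocytes all came from glands of mice at the end of pregnancy (E18.5), by cell sorting. The labels name DN NK1.1+ cells as T cells in the sample titles and as lymphocytes elsewhere, and they do not say which pair of markers the cells lack. The labels give no strain, age or pooling of animals. The series asked whether unconventional lymphocytes in the mammary epithelium act on epithelial differentiation, and this comparison places one such population beside conventional T cells of the gland.

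Library totals ran from 7961360 to 14367299 counts. Of the sort markers, Cd8b1 was at 892 to 1007 CPM (depth-scaled counts, with TMM factors) in the CD8 beta+ group and 1.21 to 4.31 CPM in DN NK1.1+ libraries, and Klrb1c, which encodes NK1.1, at 30.8 to 41.8 and 618 to 659 CPM. DN NK1.1+ libraries still held 514 to 529 CPM of Cd3e, a chain of the T cell receptor complex, against 742.5 to 777.2 CPM. Of 12 CD8 T cell genes, which include Cd8b1, 11 were lower in DN NK1.1+ libraries (adjusted p under 0.05, edgeR, against 5.99% of tested genes). Themis was at 383.6 to 391.8 and 4.40 to 14.4 CPM. Of 11 NK and innate lymphoid genes, which include Klrb1c, 10 were higher (against 7.84%). Ncr1 was at 0.289 to 0.65 and 252.1 to 293.2 CPM. Transcripts of 12 luminal and milk genes summed to 732 to 1050.1 CPM in the CD8 beta+ group and to 426, 1147 and 2195 CPM in DN NK1.1+ replicates 1, 2 and 3. Sums of 15 myeloid genes were 1051 to 1136 and 820.3 to 1106 CPM, and those of 9 B and plasma cell genes 193.5 to 359 and 347 to 551.5 CPM. Single genes did not all follow these sums. Of 13 tested myeloid genes, 11 had a log2 fold change above 0 in DN NK1.1+ libraries. Ly6c2, at 452.2 to 660.2 and 167.5 to 190.2 CPM, went the other way. Of 8 tested B and plasma cell genes, 5 had a log2 fold change under 0. Ighm, at 149.9 to 209.3 and 247.2 to 289.0 CPM, was the largest part of that sum. CD8 beta+ replicate 3 and DN NK1.1+ replicate 3 had the highest sums of 8 basal genes (139 and 188 CPM, against at most 22.9 CPM elsewhere) and of 12 stromal and endothelial genes (217 and 238 CPM, against at most 147 CPM). The part of these other cells in the results was not tested.

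Each ribosome joins a small subunit, which reads the mRNA, to a large subunit, which forms the peptide bond. Their proteins are needed in matched amounts and are encoded by separate genes, mostly without close functional copies in the genome. Vertebrate ribosomal protein mRNAs begin with a cytosine followed by an uninterrupted stretch of pyrimidines, the 5′ terminal oligopyrimidine (TOP) motif, through which mTOR signalling and the protein LARP1 set their translation and stability. Lymphocytes change their output of ribosomes as they move between rest and growth.

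RefSeq promoter entries on build GRCm38.p6 were found for 57 of the 77 canonical genes. Stretches from 30 bases before the annotated start to 20 bases from it are shown for 4 genes that fell in DN NK1.1+ libraries and for 4 that did not pass the test, because pyrimidine runs were found in both. Capitals mark the longest pyrimidine run of each stretch, which has 7 bases in Rpl12 and at least 9 in the others. The genes shown do not stand for all 57. Rps16, Rps19 and Rps13, which fell, had runs of 5, 5 and 6 bases, and Rpl10 and Rpl41, not called, of 4 each. The starts used for Rps10, Rps26 and Rpl35 lie 301, 241 and 493 bases from the GENCODE start. Those for Rpl12, Rpl28, Rpl38, Rpl13a and Rps27 lie 153, 91, 29, 16 and 3 bases from it.
Rps27, lower, chr3:90213629-90213678, minus strand: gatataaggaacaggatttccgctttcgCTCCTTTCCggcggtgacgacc
Rps10, lower, chr17:27635225-27635274, minus strand: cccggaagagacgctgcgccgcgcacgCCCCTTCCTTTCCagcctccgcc
Rpl13a, lower, chr7:45128726-45128775, minus strand: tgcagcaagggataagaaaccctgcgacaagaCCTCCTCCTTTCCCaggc
Rpl12, lower, chr2:32961682-32961731, plus strand: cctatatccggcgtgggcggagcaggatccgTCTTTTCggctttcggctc
Rpl38, not called, chr11:114668550-114668599, plus strand: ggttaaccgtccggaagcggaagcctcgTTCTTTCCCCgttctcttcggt
Rpl28, not called, chr7:4792935-4792984, plus strand: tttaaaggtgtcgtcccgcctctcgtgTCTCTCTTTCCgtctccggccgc
Rpl35, not called, chr2:39005112-39005161, minus strand: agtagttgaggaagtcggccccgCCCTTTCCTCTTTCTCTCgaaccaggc
Rps26, not called, chr10:128626487-128626536, minus strand: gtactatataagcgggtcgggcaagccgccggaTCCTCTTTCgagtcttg

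A run of at least 8 pyrimidines lay in this 50-base stretch in 28 of the 57 canonical genes (49.1%), against 19.4% of 9065 other tested genes and 5418 of all 27025 genes with an entry. A cytosine exactly at the annotated start with 4 pyrimidines after it was found in 12 of the 57 (21.1%), against 2.53% of all genes. Annotated starts may lie away from the start used in these cells, so a stretch without a run says nothing about the mRNA. Among members that fell, 16 of 34 had a run of at least 8 and 5 (14.7%) the cytosine with its pyrimidines at the start. Among members that did not pass the test these were 12 and 7 (30.4%) of 23, and the median longest runs were 7 and 9 bases. In the 300 bases from 250 before the start to 50 from it, searched on both strands, the ETS core CCGGAAG was in 23 of the 57 (40.4%), against 19.7% of the other tested genes and 9.08% of all promoters. The SP1 box GGGCGG was in 34 (59.6%), against 64.2% and 35.6%. The YY1 core AAGATGGC was in 4 (7.02%), against 5.07% and 2.86%, and TATAAA in 5 (8.77%), against 6.93% and 14.1%. These matches describe letters and not binding. The canonical genes used the RefSeq entry nearest the GENCODE start, and the other tested genes and all promoters the entry with the lowest coordinate. The percentages of these sets therefore compare unlike choices of start.

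Ribosomal protein transcripts took a smaller share of the DN NK1.1+ libraries. The 93 members held 9.75%, 8.86% and 7.86% of all counts in CD8 beta+ replicates 1, 2 and 3, and 7.08%, 7.06% and 7.11% in DN NK1.1+ replicates 1, 2 and 3. The group means were 8.83% ± 0.947 and 7.09% ± 0.0247 (SD, n = 3 each). The groups did not overlap, and the CD8 beta+ libraries were spread much more widely than the DN NK1.1+ libraries. Both subunits showed this: canonical large subunit genes held 4.59% to 5.65% and 4.16% to 4.17%, and small subunit genes 3.22% to 4.05% and 2.84% to 2.90%. These are shares of counts, so a fall of these transcripts and a rise of others cannot be told apart, and in bulk samples neither can fewer cells of a type and less RNA per cell.

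**Figure D1:**
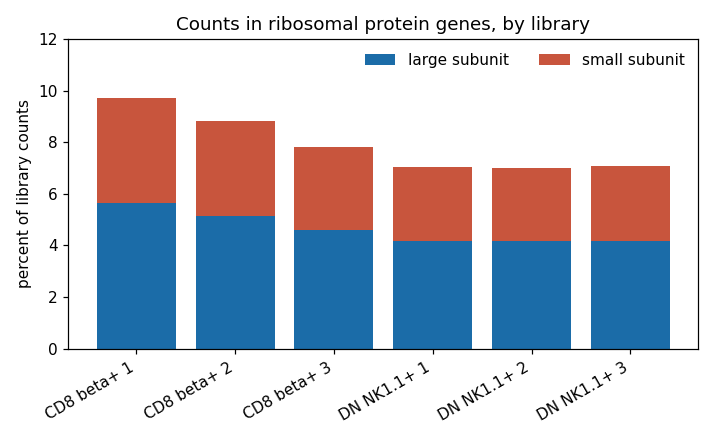
Percent of library counts (vertical axis) in the 46 large and 31 small canonical subunit genes, stacked, for each of the 6 libraries. The 3 CD8 beta+ libraries differ from each other, and the 3 DN NK1.1+ libraries lie at nearly one level below them.

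Across single genes the difference ran almost wholly in one direction. Of 93 members, 89 passed the filter on low counts, and 41 of these were lower in DN NK1.1+ libraries at an adjusted p under 0.05 (edgeR, quasi-likelihood test, Benjamini-Hochberg over 13171 genes). Over all tested genes 5.99% were lower, and among 1794 other genes of at least 100 CPM 10.8% were. DESeq2 called 52 members lower (6.9% of all genes) and limma-voom 44 (5.94%). All DN NK1.1+ libraries lay under all CD8 beta+ libraries for 47 of the 89, a pattern shown by 14.6% of tested genes. No member was called higher with edgeR or limma-voom, where 7.84% and 7.39% of all genes were, and DESeq2 called 1 (8.5% of all genes). At an unadjusted p under 0.05, 2 members were higher, Rpl10 and Rps4l (13.4% of all genes). All 41 called members were canonical, so 41 of 77 canonical genes fell, and 75 of the 77 had a log2 fold change under 0. Their median log2 fold change was −0.37, with a range from −0.73 to 0.27, while the median over all tested genes was −0.0033.

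The number of calls rested on the choice of libraries. Without CD8 beta+ replicate 1, which had the highest level of 73 of the 77 canonical genes, 12 members were lower, and without CD8 beta+ replicate 2, 15 were. Without CD8 beta+ replicate 3, which had the lowest CD8 beta+ level of 75 of the 77, 64 members were lower. Leaving out DN NK1.1+ replicate 1 or 2 gave 20 each. Over all genes 3.6%, 3.87%, 6.4%, 4.26% and 4.25% were lower in these 5 fits. Rpl12, Rpl13a, Rpl27a, Rpl30, Rpl32, Rpl7a, Rps10, Rps13, Rps15a, Rps16 and Rps27 kept the call under every alternative run, and each of the other 30 called members lost it at least once. The median log2 fold change of the tested members stayed under 0 in all 5 fits, from −0.26 without CD8 beta+ replicate 1 to −0.46 without CD8 beta+ replicate 3. CD8 beta+ replicate 3 also had the highest sum of 12 cycling genes (2281 CPM, against 1474 to 1597 CPM in the other libraries), whose part in its lower ribosomal protein level was not tested.

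**Figure D2:**
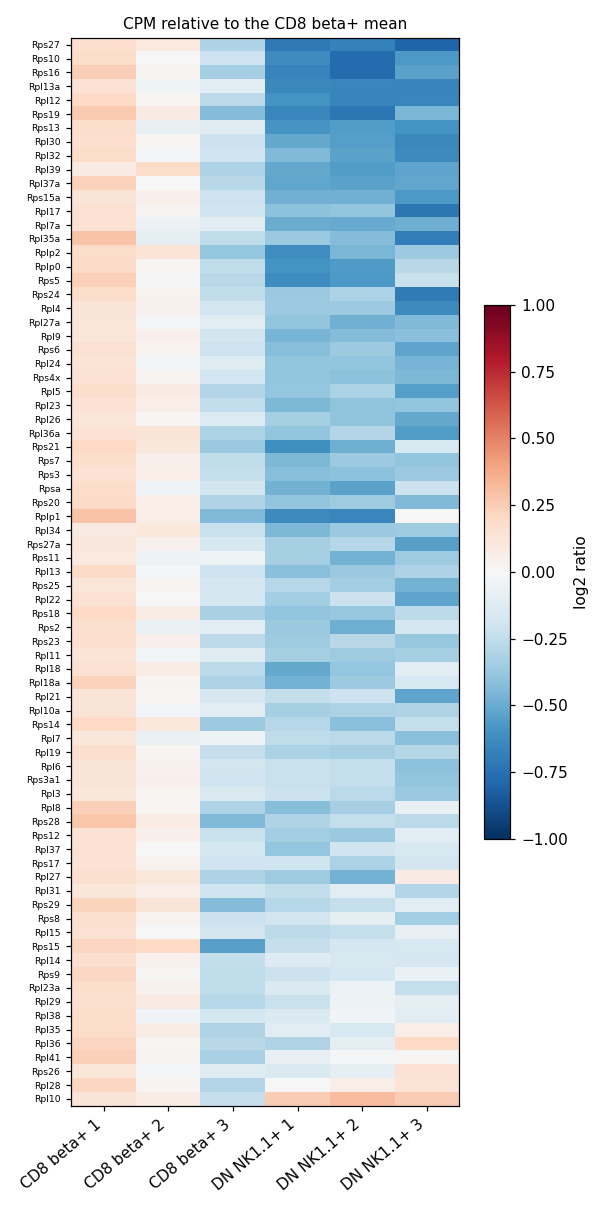
Log2 ratio of CPM to the CD8 beta+ mean (colour) for the 77 canonical genes, ordered by fold change from top to bottom, in the 6 libraries. Most genes are lower in all DN NK1.1+ libraries, CD8 beta+ replicate 3 lies for most genes under the other CD8 beta+ libraries, and Rpl10 at the bottom runs the other way.

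The small subunit held the largest decreases. Of 31 canonical small subunit genes, 17 fell and 0 rose, with a median log2 fold change of −0.38. None was higher at an unadjusted p under 0.05. Rps27, whose zinc-finger protein sits on the solvent side of the subunit, was at 1962, 1870.3 and 1412 CPM in the CD8 beta+ group and at 1063, 1097 and 1001 CPM in DN NK1.1+ libraries. Every CD8 beta+ library lay above every DN NK1.1+ library, and the gene fell by 39.7% (log2 fold change −0.73, SE 0.12, adjusted p = 6.23e-04, edgeR). Its locus is on chromosome 3 from 90212522 to 90213651 (mm10, minus strand).

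Rps10, for a protein of the mRNA entry side, was at 1659, 1457 and 1263 CPM against 945, 854 and 979 CPM. It fell by 36.6% (log2 fold change −0.66, SE 0.11, adjusted p = 8.33e-04, edgeR), without overlap of the groups. Rps16, for a protein whose tail reaches towards the tRNA in the decoding centre, was at 1156, 989 and 771 CPM against 612, 571 and 670 CPM. Rps13 was at 1061, 894 and 864 CPM against 625, 638 and 622 CPM. Both fell, with log2 fold changes of −0.65 and −0.58, and their groups lay apart.

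Rps19, which is mutated in many patients with Diamond-Blackfan anaemia, was at 747, 659 and 460.1 CPM against 396, 378 and 453 CPM. It fell in the fit of all 6 libraries (log2 fold change −0.61, SE 0.16, adjusted p = 0.0287, edgeR), but CD8 beta+ replicate 3 lay only just above DN NK1.1+ replicate 3. The call ended with the replicate number as a block (adjusted p = 0.0549) and without any library except CD8 beta+ replicate 3 (adjusted p 0.0872 to 0.122).

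Rps6, the substrate of S6 kinase downstream of mTOR, was at 3319, 3060 and 2596 CPM against 2230, 2330 and 2078 CPM. The decrease of 26.0% passed the test (log2 fold change −0.44, SE 0.11, adjusted p = 0.0158, edgeR), and the groups did not overlap. Rps4x, Rps3, Rpsa and Rps27a fell by similar amounts, with log2 fold changes of −0.42, −0.40, −0.40 and −0.38. Rps3 lies at the mRNA entry and also acts in DNA repair, Rpsa is known too as the laminin receptor, and Rps27a is made as a fusion with ubiquitin. The calls of Rps6 and Rps4x ended without CD8 beta+ replicate 1 (adjusted p = 0.105 and 0.102), without CD8 beta+ replicate 2 (0.0786 and 0.0772) and without DN NK1.1+ replicate 1 (0.072 and 0.0651), and that of Rps4x also without DN NK1.1+ replicate 2 (0.0685).

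At the other end, Rps26, whose protein lies at the mRNA exit channel, was at 1029, 938 and 866 CPM against 854, 884 and 1045 CPM. The groups overlapped and the log2 fold change was −0.03 (SE 0.11, adjusted p = 0.922, edgeR). Rps15, at 1179, 1168 and 697 CPM against 863, 905 and 907 CPM, was lowest in CD8 beta+ replicate 3 and missed the threshold (adjusted p = 0.603), so its groups overlapped as well.

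**Figure D3:**
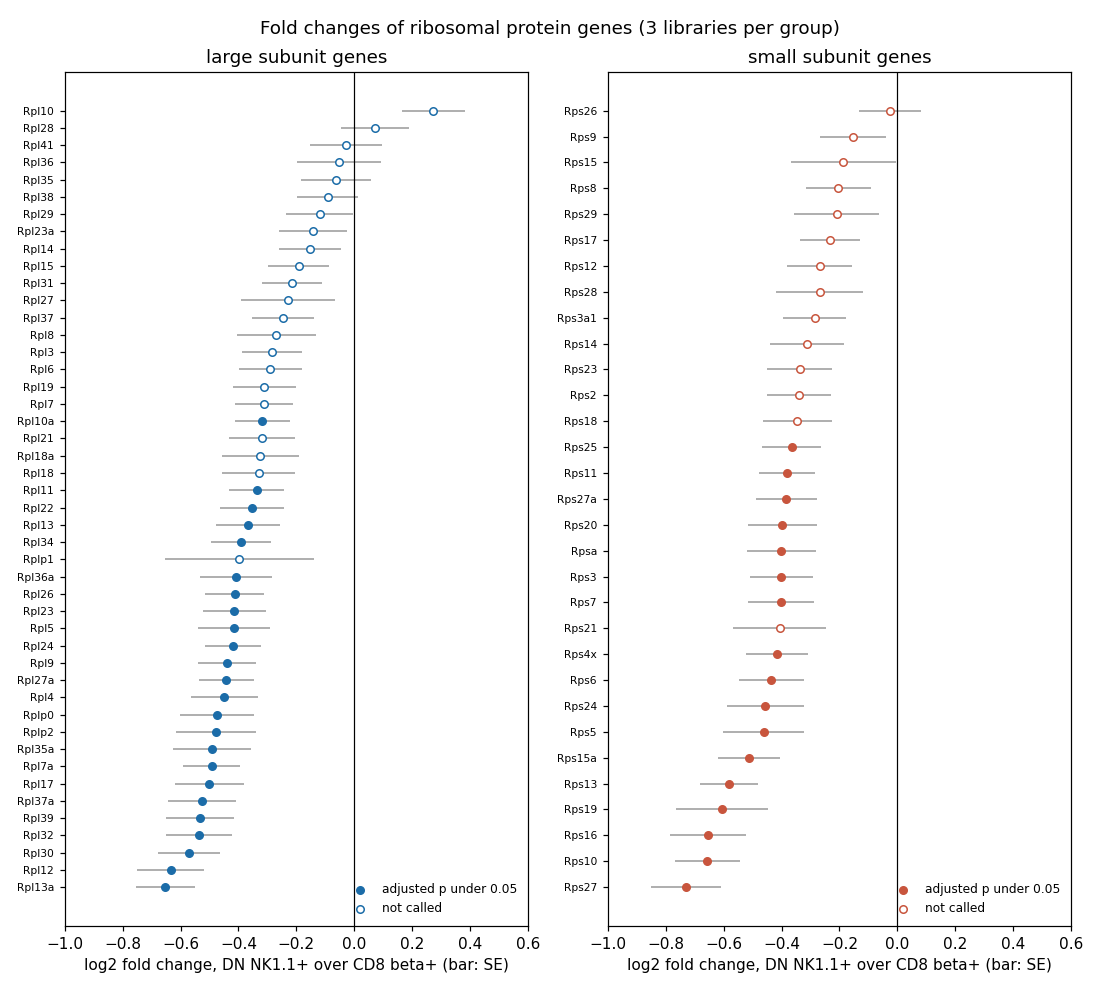
Log2 fold change of DN NK1.1+ over CD8 beta+ libraries (horizontal axis, bars are SE) for each canonical large (left) and small (right) subunit gene. Filled points passed an adjusted p of 0.05 in edgeR: 24 of 46 large and 17 of 31 small subunit genes, all to the left of 0.

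Of 46 canonical large subunit genes, 24 fell and 0 rose, with a median log2 fold change of −0.35. Only Rpl10 was higher at an unadjusted p under 0.05. Rpl13a, whose protein also represses translation in interferon-gamma signalling, was at 2596, 2270.4 and 2168 CPM in the CD8 beta+ group and at 1497, 1493 and 1483 CPM in DN NK1.1+ libraries. The DN NK1.1+ values agreed closely and lay well under the CD8 beta+ values (log2 fold change −0.65, SE 0.10, adjusted p = 3.58e-04, edgeR). Rpl30, at 869, 782 and 665 CPM against 540.3, 526 and 493 CPM, and Rpl32, at 2930.0, 2570 and 2252 CPM against 1900.3, 1783 and 1664 CPM, also fell without overlap (log2 fold changes −0.57 and −0.54).

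Rpl37a, at 1254, 1065 and 880.0 CPM against 744, 737 and 743 CPM, fell without overlap (log2 fold change −0.52, adjusted p = 6.58e-03, edgeR), and its call ended without CD8 beta+ replicate 1 (0.0551). Rpl35a, another gene of Diamond-Blackfan anaemia, was at 695, 534 and 478 CPM against 440.3, 422 and 353 CPM. It fell (log2 fold change −0.49, adjusted p = 0.0282, edgeR), and the call ended without CD8 beta+ replicate 1 or 2 (0.144 and 0.0571) and without DN NK1.1+ replicate 2 or 3 (0.0791 and 0.103).

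The genes with the highest levels did not all pass the test. On the scale of CPM per kilobase, Rps27 had the highest mean level of the 93 members, followed by Rpl23a, Rps6, Rpl32, Rps4x and Rpl4. Lengths were those of the longest principal transcript, and the ranking depends on this choice. For Rps24 that length was 4059 bases. Its group means of 3288 (CD8 beta+) and 2396 CPM (DN NK1.1+) thereby became 810 and 590 CPM per kilobase. Rps27 went from a mean of 5067 to 3054 CPM per kilobase, while Rpl23a, whose protein docks the signal recognition particle at the tunnel exit, was at 3752 and 3397 CPM per kilobase. Its groups overlapped, and it missed the threshold (log2 fold change −0.14, SE 0.12, adjusted p = 0.511, edgeR).

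The stalk, a flexible arm that recruits elongation factors, changed unevenly. Rpl12, for a protein of its base, was at 1915, 1693 and 1390 CPM against 1102, 1055 and 1063 CPM and fell by 35.6% (log2 fold change −0.63, SE 0.12, adjusted p = 1.35e-03, edgeR). Rplp0, the scaffold of the stalk, was at 2122, 1885 and 1559 CPM against 1225, 1253 and 1529 CPM. It fell too (log2 fold change −0.47), although DN NK1.1+ replicate 3 came close to CD8 beta+ replicate 3. For Rplp1 this library, at 943 CPM against 605 and 600.3 CPM in the other DN NK1.1+ libraries, lay inside the CD8 beta+ range of 694 to 1149 CPM, and the gene missed the threshold (adjusted p = 0.428). Rplp2 fell (log2 fold change −0.48, adjusted p = 0.0361, edgeR) with overlapping groups, since DN NK1.1+ replicate 3 at 347 CPM exceeded CD8 beta+ replicate 3 at 342 CPM.

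Rpl5 and Rpl11 bind 5S rRNA together and, when free of ribosomes, inhibit MDM2. Rpl5 was at 2266, 2124 and 1645 CPM against 1538, 1613 and 1375 CPM, and Rpl11 at 649, 579 and 544 CPM against 469, 462 and 470 CPM. Both fell, with log2 fold changes of −0.42 and −0.34 (adjusted p = 0.0342 and 0.0263, edgeR), and the groups lay apart in each. Of the proteins lining the tunnel through which the new peptide leaves, Rpl4, Rpl17 and Rpl39 fell with log2 fold changes of −0.45, −0.50 and −0.53. Rpl3, near the peptidyl transferase centre, was at 2185, 2048 and 1823 CPM against 1742, 1673 and 1558 CPM. Its groups did not overlap, but it missed the threshold (log2 fold change −0.28, adjusted p = 0.0896, edgeR) and passed it with DESeq2 (adjusted p = 0.014) and limma-voom (0.0474).

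Rpl10 ran against the family. Its protein joins the large subunit late in assembly, next to the site of peptide bond formation. It was at 1494, 1436 and 1164 CPM in the CD8 beta+ group and at 1627, 1691 and 1626 CPM in DN NK1.1+ libraries. All DN NK1.1+ libraries were above all CD8 beta+ libraries, a pattern that 16.0% of tested genes showed in this direction. The difference missed the threshold (log2 fold change 0.27, SE 0.11, adjusted p = 0.123, edgeR) and passed it with DESeq2 (0.0442) and with scaling by library size only (0.0453). Without CD8 beta+ replicate 3 the log2 fold change was 0.16 (adjusted p = 0.288, edgeR). As a part of all canonical ribosomal protein counts, Rpl10 took 1.49%, 1.57% and 1.51% in the CD8 beta+ group and 2.35%, 2.42% and 2.37% in DN NK1.1+ libraries. This ratio of 1.56 between the group means was the highest of the 77 genes, and it is free of the scaling between libraries. It also holds the fall of the pool, whose summed CPM had means of 89547 and 69304. A gene that keeps its CPM gains share in a smaller pool. In CPM the fitted ratio for Rpl10 was 1.21. The gene lies on chromosome X from 74270812 to 74273135. Its processed copy Rpl10-ps3 was at 19.5 to 30.2 CPM and 28.1 to 28.7 CPM, and adding the counts of all its named pseudogenes left the log2 fold change at 0.27.

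Rpl28, Rpl41, Rpl36, Rpl35 and Rpl38 had log2 fold changes from −0.09 to 0.07 and overlapping groups. Rpl38, known for its part in translating Hox mRNAs, was at 966, 828 and 754 CPM against 770, 832 and 789 CPM. The directions of these 5 genes and of Rps26 turned under at least 1 alternative setting, so no direction is given for them. Within the pool of canonical counts, Rpl28 took 0.702% to 0.768% in CD8 beta+ libraries against 0.955% to 1.06%, and Rpl41 went from 0.821% ± 0.0526 to 1.05% ± 0.0385 (SD, n = 3). At the opposite end Rps27 went from 1.95% ± 0.106 to 1.52% ± 0.057, and Rpl13a from 2.63% ± 0.171 to 2.15% ± 0.0144. Over all 77 genes, the pool shares of the groups did not overlap for 14 that were lower and 16 that were higher in DN NK1.1+ libraries, and these 4 genes were taken from both ends. Such patterns were shown by 14.6% (lower) and 16.0% (higher) of all tested genes in CPM, which is another measure. The counts of 14 and 16 are not far above these shares. The summed counts of large over small subunit genes were 1.40, 1.39 and 1.43 in the CD8 beta+ group and 1.46, 1.47 and 1.43 in DN NK1.1+ replicates 1, 2 and 3, so CD8 beta+ replicate 3 and DN NK1.1+ replicate 3 had about the same ratio.

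The paralogues were described per length, as CPM per kilobase of the principal transcript, against their parent genes. Of 8 paralogues, 6 could be tested and none was called, while 5 of the 8 parents, Rps27, Rpl22, Rpl36a, Rpl39 and Rps4x, fell and Rpl3, Rpl7 and Rpl10 missed the threshold. With DESeq2 and limma-voom none was called either, and at an unadjusted p under 0.05 only Rps4l was higher. Whether a paralogue's change differed from that of its parent was not tested. Rpl22 is needed for the development of alpha-beta T cells, and Rpl22l1 can take its place in the ribosome. Rpl22 was at 534, 482 and 425 CPM in the CD8 beta+ group and at 381, 414 and 334 CPM in DN NK1.1+ libraries, without overlap. It passed the threshold narrowly (log2 fold change −0.35, SE 0.11, adjusted p = 0.0439, edgeR), and the call ended with scaling by library size only (0.0703), without CD8 beta+ replicate 1 or 2 (0.226 and 0.131) and without DN NK1.1+ replicate 1 or 3 (0.122 and 0.107).

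Rpl22l1 was at 240, 247 and 184 CPM against 193, 210 and 166 CPM, with overlapping groups (log2 fold change −0.24, SE 0.12, adjusted p = 0.262, edgeR). Without CD8 beta+ replicate 3 it passed the threshold (log2 fold change −0.37, adjusted p = 0.0385), and without DN NK1.1+ replicate 3 the value was −0.15. Per length it stood at 48.2%, 55.0% and 46.4% of Rpl22 in the CD8 beta+ group and at 54.6%, 54.5% and 53.6% in DN NK1.1+ libraries. On this scale it was therefore the paralogue closest in level to its parent in these cells, and its ratio overlapped between groups. Rpl36al stood at 11.4% to 14.9% of Rpl36a and at 14.4% to 15.1%. These percentages depend on the lengths used, 1276 bases for Rpl36al and 483 for Rpl36a. In CPM, Rpl36al and Rpl36a had means of 216 and 651 in the CD8 beta+ group and of 190.5 and 490 in DN NK1.1+ libraries. Rps27l, a target of p53, was far under Rps27, at 0.441% to 1.03% and 0.903% to 1.47%, and Rpl7l1 stood at 0.997% to 1.31% and 1.24% to 1.60% of Rpl7. Rps27l had a log2 fold change of 0.17 (adjusted p = 0.741) and Rpl7l1 of 0.01 (adjusted p = 0.981).

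**Figure D4:**
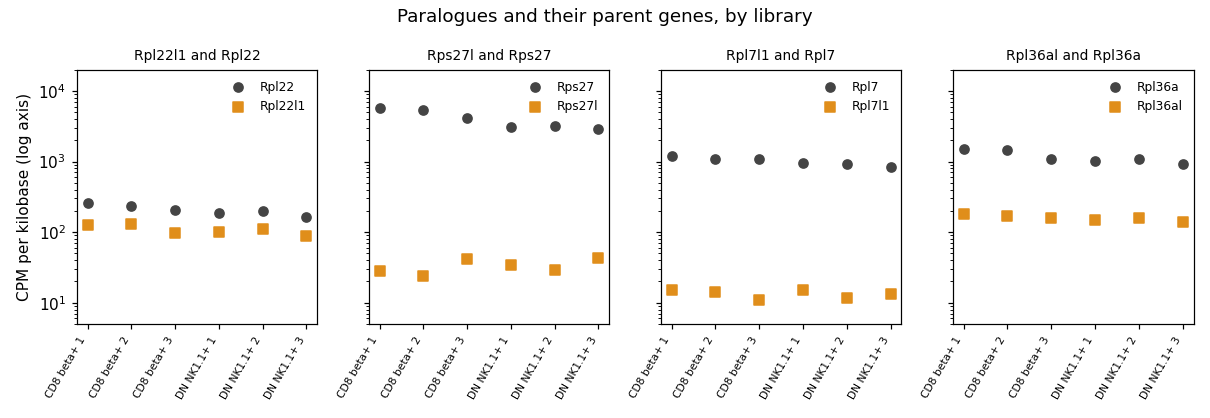
CPM per kilobase (log axis) of 4 paralogues (squares) and their parent genes (circles) in each library. Rpl22l1 lies close under Rpl22, Rpl36al about an order of magnitude under Rpl36a, and Rps27l and Rpl7l1 far under their parents.

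The remaining paralogues were barely present. Rpl39l had 8, 11 and 21 counts in the CD8 beta+ group and 1, 7 and 17 counts in DN NK1.1+ libraries. Rpl3l, a striated muscle form of Rpl3, had 4 counts in 1 DN NK1.1+ library and 0 elsewhere, and the testis gene Rpl10l had 0 counts in all 6. Rps4l, annotated as a pseudogene, had 5, 12 and 7 counts against 13, 34 and 38 counts (log2 fold change 1.59, SE 0.73, adjusted p = 0.187, edgeR). Rps12l1, also a pseudogene, had 0, 78 and 28 counts against 13, 17 and 45 counts, with no stable direction (adjusted p = 0.820, edgeR). Rps19bp1 was at 2.10 to 2.86 and 2.35 to 4.69 CPM. Of the 7 members annotated as pseudogenes, 5 were tested and none was called by edgeR, DESeq2 or limma-voom, and at an unadjusted p under 0.05 only Rps4l was higher. Copies named with -ps took 0.0697% to 0.0840% of counts in the CD8 beta+ group and 0.0596% to 0.0653% in DN NK1.1+ libraries. Such copies are near-identical to their parents, which leaves the division of counts among them uncertain.

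The members differed in features outside the rule. By the annotation, 30 of the 77 canonical genes carry at least 1 snoRNA gene inside them on the same strand, of which 19 fell, against 22 of the 47 others. The median log2 fold changes were −0.40 and −0.34. Of the 39 genes with a principal transcript of at most 51.8% GC, 27 fell, against 14 of the 38 above it (medians −0.41 and −0.32). DN NK1.1+ replicate 3 departed from the other DN NK1.1+ libraries along this axis. Across the 77 genes its log2 deviation, from −0.36 to 0.65, was correlated with GC content (Pearson r = 0.522, Spearman rho = 0.535), and across all 1873 tested genes of at least 100 CPM likewise (r = 0.552). The same correlation across the 77 genes was 0.0447 for DN NK1.1+ replicate 1 against replicate 2. In the CD8 beta+ group it was 0.207 for replicate 1 against replicate 2 and −0.257 for replicate 3 against the others. Across the 1873 genes these 2 values were 0.341 and −0.0553. These are correlations across genes of the same libraries and not across independent samples. The fold change itself had an r of 0.127 with GC content across the 77 genes. Without DN NK1.1+ replicate 3, 35 members were lower, against 5.75% of all genes.

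The related genes moved less uniformly. Among ribosomal proteins with other names, Rack1, a scaffold on the small subunit, was at 2101, 1888 and 1619 CPM against 1281, 1261 and 1459 CPM and fell (log2 fold change −0.49, adjusted p = 8.63e-03, edgeR). Fau fell from 781 ± 94.4 to 615 ± 27.4 CPM (adjusted p = 0.0375, edgeR). Of 15 elongation genes, 2 fell and 2 rose (13.3% each, against 5.99% and 7.84% of all genes, with a median log2 fold change of −0.19). Eef1g, for a subunit of the factor that reloads eEF1A, was at 800, 731 and 587 CPM against 486, 493 and 508 CPM and fell (log2 fold change −0.51, adjusted p = 5.31e-03, edgeR). Eef1b2, of the same factor, fell as well (log2 fold change −0.40, adjusted p = 0.0431, edgeR).

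Eef2k, for the kinase that inhibits elongation factor 2, rose from 8.97, 9.39 and 3.19 CPM to 30.9, 36.3 and 36.5 CPM (log2 fold change 2.26, SE 0.32, adjusted p = 5.84e-04, edgeR). The groups lay far apart for this gene. Eif5a, for a factor that relieves stalled ribosomes, also rose (log2 fold change 0.36, adjusted p = 0.0131, edgeR). Eef1a1, Eef2 and Tpt1, whose mRNAs carry TOP motifs as those of Eef1g and Eef1b2 do, did not pass the test, with log2 fold changes of −0.19, −0.05 and −0.27.

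Of 41 initiation genes, 1 fell (2.44%, against 5.99% of all genes) and 2 rose (4.88%, against 7.84%), with a median of −0.03. Eif3f, a subunit of the initiation factor that binds the small subunit, fell from 502 ± 41.1 to 400 ± 4.92 CPM, while Eif3b, of the same complex, rose from 108 ± 3.26 to 138 ± 4.27 CPM (adjusted p = 0.0277 and 0.0192, edgeR). Pabpc4, for a poly(A)-binding protein, rose with a log2 fold change of 0.48 (adjusted p = 0.0191, edgeR). Of 79 ribosome biogenesis genes, 5 fell (6.33%, about the 5.99% of all genes) and 0 rose, with a median of −0.14. At an unadjusted p under 0.05, 17 of the 79 were lower and 2 higher, against 1533 (11.6%) and 1762 (13.4%) of 13171 genes. A log2 fold change under 0 was seen in 59 of the 79, against 6629 of the 13171. The lean of this list to lower values was not tested. Emg1, for a methyltransferase of 18S rRNA, was at 91.2, 80.8 and 93.8 CPM against 35.2, 37.9 and 43.8 CPM and fell by 1.18 on the log2 scale (SE 0.13, adjusted p = 9.11e-06, edgeR). Sdad1, for a factor of large subunit assembly, fell by 0.69 on the log2 scale (adjusted p = 0.018, edgeR).

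Of 37 tested genes in the list of regulators, 1 fell (2.7%, against 5.99% of all genes) and 3 rose (8.11%, about the 7.84% of all genes), with a median of 0.05. Rps6ka5, for a kinase of the MAPK pathway, and Sesn1, for an inhibitor of mTORC1, rose with log2 fold changes of 0.64 and 0.57 (adjusted p = 0.0133 and 0.0175, edgeR). Of the antagonists of MYC in the list, Mxi1 fell and Mxd4 rose, with log2 fold changes of −0.65 and 0.35 (adjusted p = 0.0134 and 0.014, edgeR). Myc was at 77.5 ± 10.7 and 83.7 ± 15.7 CPM (adjusted p = 0.706), and Mtor at 39.1 ± 7.01 and 49.6 ± 1.79 CPM (adjusted p = 0.153).

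The mitochondrial ribosome, which is built from a separate set of nuclear genes, did not share the pattern of calls. Of 78 mitochondrial ribosomal protein genes 1 fell (1.28%, against 5.99% of all genes) and 0 rose, with a median log2 fold change of −0.08. At an unadjusted p under 0.05, 3 were lower and 2 higher. The 1 called gene, Mrps16, was at 16.9, 15.8 and 14.7 CPM against 9.91, 8.80 and 9.79 CPM (log2 fold change −0.73, adjusted p = 0.0365, edgeR). Summed, these genes held 0.141% ± 0.00766 of counts in the CD8 beta+ group and 0.139% ± 0.00553 in DN NK1.1+ libraries (SD, n = 3). The difference between the cytosolic and mitochondrial lists was not tested, and the mitochondrial genes have far lower counts, at which small changes are harder to call.

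Of the 19 related genes that were called, Eef1g, Eef2k, Emg1 and Mxi1 kept the call under every alternative run, and the other 15 lost it at least once. With scaling by library size only the calls of Fau, Eef1b2, Eif3f, Mrps16 and Ddx18 ended (adjusted p 0.0527 to 0.0735, edgeR), and that of Mrps16 also without the filter on low counts (0.0615). Without CD8 beta+ replicate 1 the calls of Rack1, Fau, Eef1b2, Eif5a, Eif3f, Eif3b, Sdad1, Ddx18, Taf1d, Rps6ka5, Sesn1, Mxd4 and Mrps16 ended (0.0649 to 0.205), and without CD8 beta+ replicate 2 those of Fau, Eef1b2, Eif3b, Pabpc4, Sdad1, Ddx18, Nop56, Taf1d, Mxd4 and Mrps16 (0.0543 to 0.199). Without DN NK1.1+ replicate 1 those of Rack1, Fau, Eef1b2, Eif3f, Pabpc4, Sdad1, Ddx18, Nop56, Taf1d, Rps6ka5, Mxd4 and Mrps16 ended (0.0527 to 0.164). Without DN NK1.1+ replicate 2 those of Rack1, Fau, Eef1b2, Eif3f, Eif3b, Pabpc4, Ddx18, Rps6ka5, Sesn1 and Mrps16 ended (0.0601 to 0.117), and without replicate 3 those of Eef1b2, Sdad1, Ddx18 and Mrps16 (0.0617 to 0.122).

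**Figure D5:**
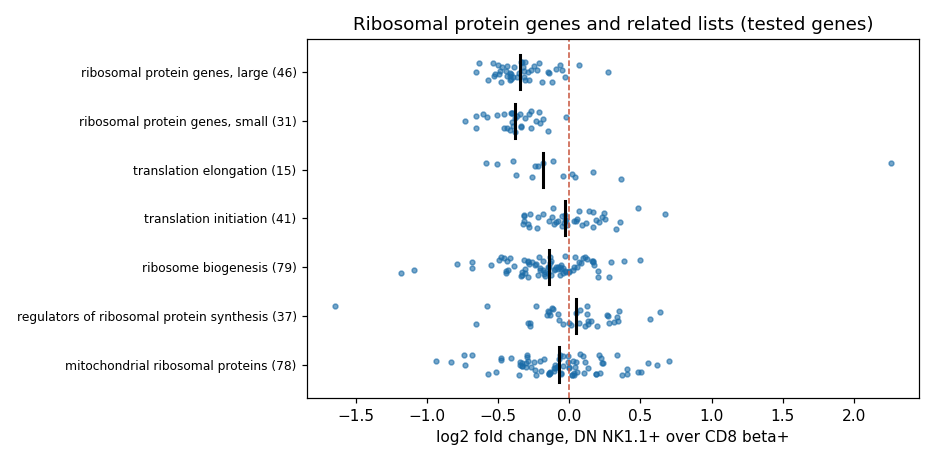
Log2 fold change of DN NK1.1+ over CD8 beta+ libraries (horizontal axis) for each tested gene of 7 lists, with the number tested in brackets, black bars at the medians and a dashed line at the median of all tested genes. The 2 lists of cytosolic ribosomal protein genes have medians of −0.35 and −0.38, and those of the other lists lie between −0.19 and 0.05.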

How the data were processed

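Bulk RNA sequencing was done on 3 CD8 beta+ and 3 DN NK1.1+ libraries. Per the labels' protocols, RNA came from sorted cells and libraries from a Tecan Solo mouse kit. The deposited values are expected counts of each gene, a unit inferred from their decimals and unequal totals. The table's headings for symbol and identifier are exchanged, and were read by content. The submitters' processing notes list build mm10 and Cell Ranger 7.1.0. For these libraries the aligner, counting tool and use of strand were not given in the sources used here. Expected counts were rounded to whole numbers.

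Counts were tested with edgeR 4.0.16 in R 4.3.3 (quasi-likelihood, robust, group alone, TMM factors 0.9653 to 1.031). The low-count filter (filterByExpr, count 10, total 15) left 13171 genes. Two-sided p-values were adjusted over these by the Benjamini-Hochberg method, and 0.05 was the threshold. SE were derived from the F statistic. A single count was worth 0.0722 to 0.13 CPM. Alternatives were other scalings, DESeq2 1.42.0, voom in limma 3.58.1, no filter, the replicate block, each library left out and, chosen after seeing the data, pseudogene counts added to their parents. The fit was tested on simulated counts, drawn independently for each gene. Such counts cannot show how the fit treats a shift shared by many genes of the same library. Within a group, the chi-square statistic per degree of freedom between libraries was 9.07 to 23.5, and no library was a copy of another. No label ties the libraries to separate animals: the p-values reflect the spread of these samples alone, which may be technical.

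Named members were the 8 called with the largest change each way, paralogues and parents, 3 genes per subunit with the highest level per length, up to 6 whose call or direction changed with the settings, and the 2 called with the largest change each way in each related list at 5 CPM or more. Others were named after their values were seen. Members and lists were chosen with earlier results of these data known. All 93 member symbols matched GENCODE M21, the source of mm10 coordinates, lengths and GC content (longest principal transcript). RefSeq promoters were matched by symbol. Canonical genes took the entry nearest the GENCODE start, and the sets they were compared with took the entry with the lowest coordinate. One gene of the related lists is not reported here.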

Additional observations from a re-analysis of the deposited data

How the results depend on the processing

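All settings kept more members lower than higher. With all 6 libraries, between 33 (library size only) and 54 (no filter on low counts) members were lower, and 32 of the 41 were lower under each of those settings. Without 1 library the count ran from 12 to 64. A single member, Rpl10, was higher with library size only (1) and with DESeq2 (1), and the count of higher members was 0 in every other setting run. Over all settings 30 of the 41 calls were lost at least once, and 11 were not: Rpl12, Rpl13a, Rpl27a, Rpl30, Rpl32, Rpl7a, Rps10, Rps13, Rps15a, Rps16 and Rps27. The difference in the share of counts, −1.74 percentage points, ran from −2.22 to −1.28 without 1 library.

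The direction of 12 members, none called, turned under at least 1 setting, among them Rpl28, Rpl35, Rpl36, Rpl38, Rpl41 and Rps26. For 3 others the values were: Rpl7l1 (−0.0205 with upper quartile scaling, −0.1273 without CD8 beta+ replicate 3, −0.0871 without DN NK1.1+ replicate 1; −0.1273 to 0.0984 without 1 library), Rps27l (−0.0018 without CD8 beta+ replicate 2, −0.0018 to 0.4355 without 1 library) and Rps12l1 (0.0975 with the replicate block, 0.2985 with limma-voom, 0.4348 without CD8 beta+ replicate 2, −1.1761 to 0.4348 without 1 library). The causes were not tested.

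Whether replicate numbers pair the samples was not settled. The correlations of same-numbered libraries' deviations were −0.05, 0.189 and 0.256 for numbers 1, 2 and 3. Libraries numbered 2 and 3 correlated best with their own number, and those numbered 1 did not. With the replicate block, 46 members were lower and 0 higher.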
